A study of Mus musculus with 13 samples.

Results

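A set of 10 genes of the peroxiredoxin and antioxidant enzyme group was followed through meiotic maturation of mouse oocytes. They were picked by symbol: the peroxiredoxins Prdx1, Prdx2, Prdx3, Prdx4, Prdx5 and Prdx6, the superoxide dismutases Sod1 and Sod2, the glutathione peroxidase Gpx4 and the thioredoxin gene Txn1. All 10 symbols were found among the 18939 genes of the count tables, and all 10 passed the filter on low counts when the stages were compared.

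Superoxide dismutases turn superoxide into hydrogen peroxide. Peroxiredoxins reduce hydrogen peroxide with a reactive cysteine, and most of them are recharged by thioredoxin, which in turn takes electrons from NADPH through thioredoxin reductase. Transcription stops as NSN oocytes become SN oocytes and stays off through maturation, when stored mRNAs are translated, given longer or shorter poly(A) tails, or degraded.

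The libraries came from 13 single oocytes of C57BL/6 females, 3 to 4 weeks old, taken 48 h after PMSG. GV oocytes, arrested in prophase with an intact germinal vesicle, were sorted by live imaging of the nucleolus into SN (chromatin surrounding the nucleolus) and NSN (not surrounding it). In every group the oocytes had been injected with mRNA for FBL-GFP, and had spent 6 h in 10 µM Cilostamide, a phosphodiesterase inhibitor that holds the GV arrest. The methods also describe H2B-mCherry mRNA as co-injected for imaging, which the labels of the sequenced oocytes do not name. The zona pellucida was removed before lysis. The groups held 3 SN GV oocytes, 3 NSN GV oocytes, 4 MII oocytes matured from SN oocytes (SN-MII) and 3 matured from NSN oocytes (NSN-MII). MII oocytes had been released from the inhibitor and cultured to metaphase of the second division. The labels do not say which oocytes shared a female, so the tests measure the spread between single oocytes.

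Total counts lay between 7140416 and 8846287 per library. All 12 oocyte markers were detected in each group, with a summed level of 18443 to 27412 CPM (counts brought to a common library size with TMM factors). The summed level of 14 cumulus and granulosa cell markers was 58.4 to 86.2 CPM at GV and 88.4 to 176 CPM at MII, of which Cyp19a1 gave 37.8 to 158 CPM. Fshr reached at most 2.25 CPM, and Foxl2 and Lhcgr were at 0 in all libraries. The part of these cells in the results was not tested. SMART-seq2 primes cDNA synthesis on the poly(A) tail, so in every value below the number of mRNA molecules and the length of their tails cannot be told apart. All levels are also relative to the other mRNAs of a library. A change between stages is therefore not a change in the amount per oocyte, which was not measured.

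At the GV stage the group was led by 3 genes. Mean FPKM, a level scaled by transcript length and sequencing depth, was 1433 ± 223 (SD, n = 6) for Sod1, the cytosolic copper-zinc dismutase, 986 ± 183 for Prdx1 and 633 ± 98.8 for Prdx2, the main cytosolic peroxiredoxins. The ranges of Sod1 and Prdx1 overlapped, as did those of Prdx1 and Prdx2, but Prdx2 lay above the next gene in every oocyte. Gpx4 followed with 124 ± 33.6 FPKM, then Txn1 with 72.5 ± 10.2 FPKM. Sod2, the mitochondrial manganese dismutase, stood at 61.4 ± 5.38 FPKM and mitochondrial Prdx5 at 53 ± 10.9 FPKM, and the ranges from Txn1 to Prdx5 overlapped with their neighbours. Prdx3, Prdx6 and Prdx4 were lowest, with means of 20.8, 11.6 and 4.75 FPKM.

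The order was different at MII. Prdx1 stood first with 1199 ± 258 FPKM (SD, n = 7) and Prdx2 second with 252 ± 43.3 FPKM, and their ranges did not overlap. Sod1 had 93.9 ± 29.2 FPKM, overlapping with Sod2 at 55.2 ± 9.12 FPKM. Txn1 lay below them at 22.2 ± 6.35 FPKM. Gpx4, Prdx6 and Prdx5 had means of 6.63, 6.53 and 6.11 FPKM and overlapped in range. Prdx3 and Prdx4 stayed at the lower end, with 2.25 and 1.48 FPKM.

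To ask how maturation changed these mRNAs, the 7 MII libraries were compared with the 6 GV libraries in edgeR (quasi-likelihood F test), and p-values were adjusted over 11375 genes. At an adjusted p under 0.05, 7 of the 10 genes changed: Prdx1 was higher, and Prdx2, Prdx3, Prdx5, Sod1, Gpx4 and Txn1 were lower. Of all genes tested, 68.6% were called, 31.7% as higher and 36.9% as lower, so a call alone does not set the group apart. The median log2 fold change of the 10 genes was -1.61, beside -0.10 over all genes tested. The 6 genes that fell did so without overlap between stages, as 26.5% of all genes did.

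**Figure D1:**
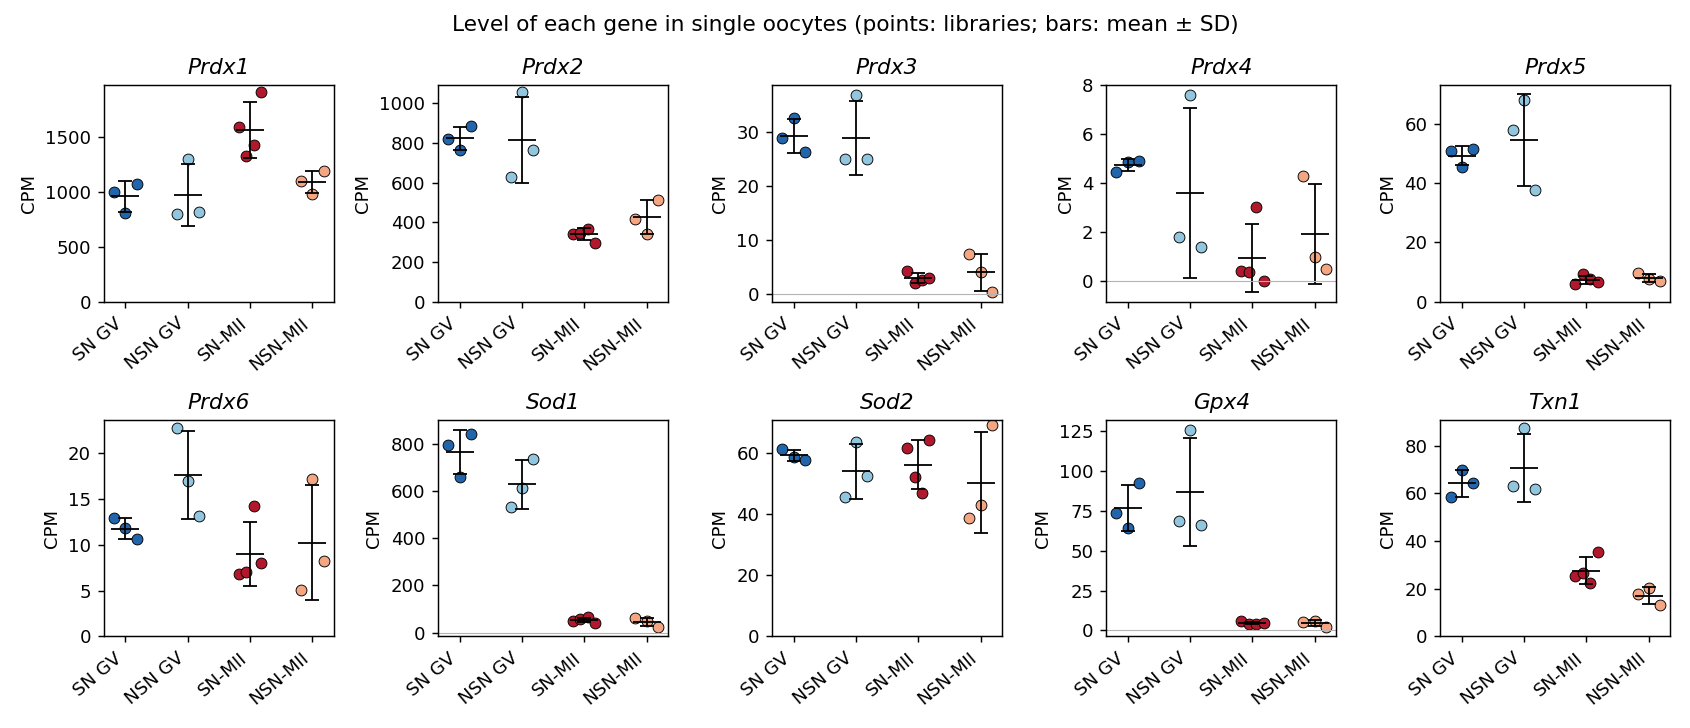
CPM (linear axes) of each of the 10 genes in the 13 single oocytes, by group; points are libraries and bars the mean ± SD. Sod1 and Gpx4 are lower in every MII oocyte than in any GV oocyte, Sod2 overlaps between all groups, and Prdx1 is highest in the 4 SN-MII oocytes.

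For 5 of the genes the last 30 bases of an annotated mRNA are shown. These genes are those with the largest falls (Sod1 and Gpx4), the thioredoxin gene, the gene that rose (Prdx1) and one that was not called (Sod2). A tail is added at the 3′ end of an mRNA, and priming starts from the tail. Whether the oocytes used these annotated ends was not tested. For Prdx1 the annotated 3′ UTRs range from 16 to 1566 bases. The sequences are from the GENCODE transcripts of GRCm38 (the build called mm10 by the study), read 5′ to 3′ on the strand of the gene, with the polyadenylation signals AATAAA and ATTAAA in capitals. All are 3′ UTR, in the last exon. They are Sod1 (chr16:90226300-90226329, plus strand), Gpx4 (chr10:80056410-80056439, plus), Txn1 (chr4:57943373-57943402, minus), Prdx1 (chr4:116700793-116700822, plus) and Sod2 (chr17:13020105-13020134, plus).
Sod1: tcaaaccATTAAActgtaatctgaagagtt
Gpx4: tgccttgtgggAATAAAatgtagaaatgtg
Txn1: gtattttaccttAATAAATAAAcatggtcc
Prdx1: tgctctgcaaAATAAAtaggacttggccaa
Sod2: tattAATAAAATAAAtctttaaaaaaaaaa
The signal AATAAA was found in Gpx4, Txn1, Prdx1 and Sod2, and ATTAAA in Sod1. The cytoplasmic polyadenylation motif was searched as TTTTAT or TTTTAAT on the mRNA strand in the last 100 bases of the 3′ UTR, or in all of it where it was shorter. It was in none of the transcripts used for the 10 genes, nor in their other annotated protein-coding transcripts with a complete 3′ end. For Sod2 only 1 such transcript was searched, with a 3′ UTR of 4963 bases. The background was 10598 genes with a 3′ UTR of at least 100 bases, without Sod1 (72 bases) and Prdx4 (60 bases). Of these 10598 genes, 20.2% held the motif. Among genes called higher at MII the share was 29.7%, among those called lower 11.1%, and among those not called 20.3%. AATAAA or ATTAAA lay in the last 40 bases in 8 of the 10 genes (all but Prdx2 and Prdx6) and in 77.6% of the 10598 genes. A match of letters is a description of the sequence and not of binding. The other genes lie at chr8:84969587-84974834 (Prdx2, plus strand), chr19:60864051-60874556 (Prdx3, minus), chrX:155323918-155340754 (Prdx4, minus), chr19:6906697-6910106 (Prdx5, minus) and chr1:161240112-161251219 (Prdx6, minus).

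The superoxide dismutases parted. Sod1 was at 796, 659 and 842 CPM in SN GV oocytes and at 533, 614 and 737 CPM in NSN GV oocytes. At MII it was at 50.7, 57.5, 65.5 and 41.8 CPM in SN-MII and at 60.8, 48.5 and 25.5 CPM in NSN-MII oocytes. The lowest GV oocyte was thus far above the highest MII oocyte. Sod1 fell by 3.82 on the log2 scale (SE 0.20, 14.1-fold, edgeR adjusted p = 1.21e-10).

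Sod2 was at 61.3, 58.7 and 57.9 CPM in SN GV oocytes and at 45.8, 63.8 and 52.6 CPM in NSN GV oocytes. Its levels were 61.8, 52.2, 46.9 and 64.2 CPM in SN-MII and 38.7, 43 and 69.2 CPM in NSN-MII oocytes. All 4 groups overlapped. The log2 change was -0.09 (95% confidence interval -0.45 to 0.27, edgeR adjusted p = 0.652), which leaves room for a modest change of this relative level in either direction. With library totals alone in place of TMM it was -0.40 (adjusted p = 0.0225), where the median of all genes was -0.39.

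Within single oocytes, where scaling between libraries cancels, the FPKM of Sod1 was 17.9 to 27.4 times that of Sod2 at GV and 0.615 to 2.89 times at MII. The summed FPKM of the pair, which does depend on that scaling, went from 1269.8 to 1861 at GV to 108 to 171 at MII. In 1 NSN-MII oocyte (replicate 3) Sod1 was below Sod2.

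**Figure D2:**
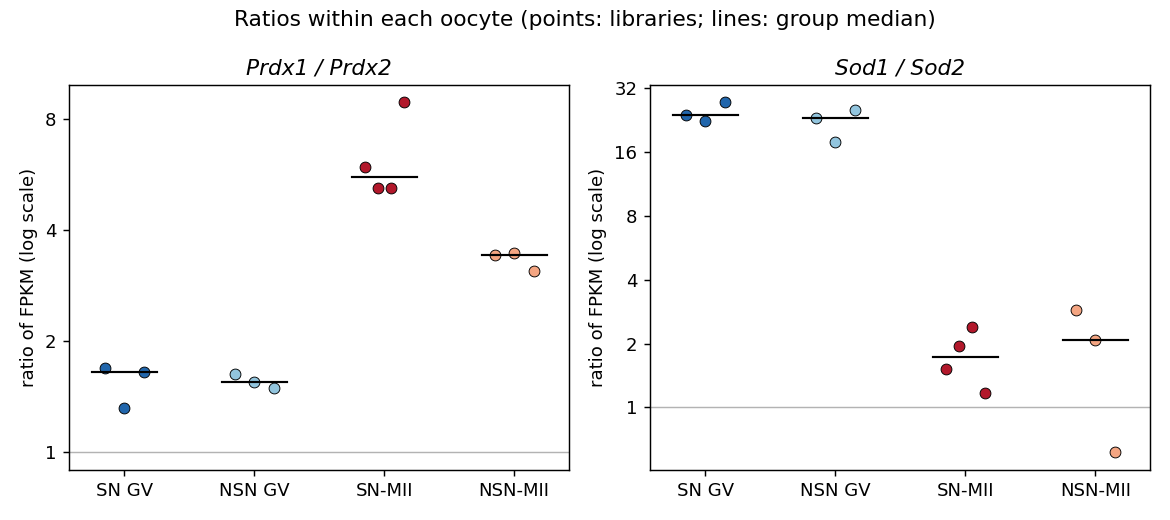
Ratios of FPKM within each oocyte, Prdx1 over Prdx2 (left) and Sod1 over Sod2 (right), on log scales; points are libraries and lines the group medians. Prdx1 over Prdx2 lies at 1.32 to 1.69 in GV oocytes, 3.09 to 3.46 in NSN-MII and 5.19 to 8.86 in SN-MII oocytes, and Sod1 over Sod2 drops from a median of 23.6 at GV to 1.95 at MII.

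Gpx4, a selenoprotein that reduces lipid hydroperoxides in membranes, had the largest fall of the 10 genes. Its levels were 73.6, 64.2 and 92.7 CPM in SN GV and 68.7, 126 and 66.1 CPM in NSN GV oocytes. They were 5.7, 4.24, 3.94 and 4.77 CPM in SN-MII and 5, 6.06 and 2.36 CPM in NSN-MII oocytes. No MII oocyte came near the GV range. Gpx4 fell by 4.15 on the log2 scale (SE 0.25, 17.7-fold, edgeR adjusted p = 4.49e-10), and 4.79% of all genes had a lower log2 fold change.

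Txn1, the cytosolic thioredoxin, fell less. It was at 58.4, 69.9 and 64.3 CPM in SN GV and 63.2, 87.2 and 61.8 CPM in NSN GV oocytes. Its levels were 25.2, 26.6, 22.5 and 35.6 CPM in SN-MII and 17.8, 20.3 and 13.3 CPM in NSN-MII oocytes. The stages did not overlap, and the NSN-MII oocytes were the lowest of all. Txn1 fell by 1.63 on the log2 scale (SE 0.18, 3.1-fold, edgeR adjusted p = 4.84e-07).

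The peroxiredoxins did not move together. Prdx1 was at 999.7, 807 and 1075 CPM in SN GV and 801, 1305 and 823 CPM in NSN GV oocytes. At MII it was at 1594, 1333, 1431 and 1917 CPM in SN-MII and 1103, 984 and 1192 CPM in NSN-MII oocytes. The 4 SN-MII oocytes lay above all others, while the NSN-MII oocytes lay within the GV range. Prdx1 rose by 0.44 on the log2 scale (SE 0.15, 1.35-fold, edgeR adjusted p = 0.0169).

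This rise of Prdx1 depended on the scaling. With library totals alone the log2 change was 0.13 (edgeR adjusted p = 0.386), and by limma on log2(FPKM + 1) it was 0.24 (adjusted p = 0.104). Relative to the median of all genes it was 0.53 with TMM and 0.53 with library totals. Scaling moves all genes nearly alike, so this match was fixed in advance and is no support for the rise. With TMM, leaving out each library in turn gave a log2 change of 0.37 to 0.57. The edgeR adjusted p lay between 0.00145 and 0.05, and the call was kept each time.

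Prdx2 went the other way. It was at 821, 764 and 884 CPM in SN GV and 631, 1055 and 765 CPM in NSN GV oocytes, against 343, 348, 369 and 298 CPM in SN-MII and 419, 342 and 513 CPM in NSN-MII oocytes. The stages did not overlap. Prdx2 fell by 1.11 on the log2 scale (SE 0.15, 2.16-fold, edgeR adjusted p = 4.21e-06). Prdx2 overlaps Junb and Rnaseh2a on the opposite strand, and the counting did not use strand as far as the methods state, so some of its reads cannot be assigned with certainty.

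Prdx1 therefore took a larger share of peroxiredoxin mRNA at MII. It made up 53.6% to 59.5% of the summed FPKM of the 6 peroxiredoxins at GV, 82.7% to 89.2% in SN-MII and 75% to 76.2% in NSN-MII oocytes. The sum itself, unlike these shares, depends on the scaling between libraries. It ranged from 1435 to 2163 FPKM at GV and from 1161 to 1792 FPKM at MII, so the stages overlapped. Prdx1 and Prdx2 together held 93.2% to 95.7% of it at GV and 98% to 99.3% at MII.

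Prdx3 and Prdx5, which serve mitochondria (Prdx5 also peroxisomes and cytosol), both fell. Prdx3 ranged from 24.9 to 36.9 CPM at GV (median 27.6) and from 0.337 to 7.38 CPM at MII (median 3). It fell by 3.07 on the log2 scale (SE 0.39, 8.42-fold, edgeR adjusted p = 3.09e-06), and NSN-MII replicate 3 held only 2 of its counts. Prdx5 ranged from 37.8 to 68 CPM at GV (median 51.1) and from 5.97 to 9.64 CPM at MII (median 7.62), and fell by 2.74 on the log2 scale (SE 0.20, 6.67-fold, edgeR adjusted p = 4.37e-09). Neither gene overlapped between stages. Prdx5 overlaps Trmt112 on the opposite strand.

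Prdx6, the peroxiredoxin with a single reactive cysteine and a phospholipase activity, ranged from 10.6 to 22.7 CPM at GV (median 13) and from 5.12 to 17.2 CPM at MII (median 8.04). The stages overlapped, and the log2 change of -0.59 (SE 0.30) did not pass the test (edgeR adjusted p = 0.089). Leaving out SN-MII replicate 3 (14.2 CPM) gave -0.74 (adjusted p = 0.0365), and leaving out NSN-MII replicate 2 (17.2 CPM) gave -0.89 (adjusted p = 0.0122). These oocytes held the highest MII levels, so a larger fall follows from the choice. Leaving out each library in turn gave -0.89 to -0.45 (edgeR adjusted p from 0.0122 to 0.199). With library totals alone the change was -0.89 as well (edgeR adjusted p = 0.021), where the median of all genes was -0.39. By limma it was -0.85 (adjusted p = 0.0302), where that median was -0.24. Prdx6b, its near copy, was at 0 in all libraries.

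Prdx4, the peroxiredoxin of the endoplasmic reticulum, was measured on few counts. SN GV oocytes held 35, 41 and 41 counts and NSN GV oocytes 17, 61 and 11. SN-MII oocytes held 3, 3, 23 and 0 counts and NSN-MII oocytes 36, 8 and 3. The 0 allows up to 0.409 CPM, for counting error only. The stages overlapped through SN-MII replicate 3 and NSN-MII replicate 1. The log2 change of -1.58 (SE 0.73) did not pass the edgeR test (adjusted p = 0.0627). It did without SN-MII replicate 3 (-2.48, adjusted p = 0.00526), NSN-MII replicate 1 (-2.27, 0.022) or NSN GV replicate 3 (-1.77, 0.0476). These MII oocytes held the highest MII levels and the GV oocyte the lowest GV level, so a larger fall follows from the choice. Leaving out each library in turn gave an edgeR adjusted p from 0.00526 to 0.253. The change stayed a fall each time and was called in these 3 omissions only. With all libraries, DESeq2 called the fall of Prdx4 (-1.66, adjusted p = 0.0326). So did limma (-1.31, adjusted p = 0.011) and edgeR with library totals alone (-1.82, adjusted p = 0.0466).

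The change was next taken apart by type of oocyte, with SN-MII set against SN GV and NSN-MII against NSN GV in the same edgeR fit. In the study's maturation assay, NSN oocytes resumed meiosis and extruded a polar body less often than SN oocytes. The MII libraries hold only oocytes that matured, and the part of this selection in the values was not tested. In SN oocytes 7 of the 10 genes were called, 1 higher and 6 lower, with a median log2 fold change of -1.79. In NSN oocytes 6 were called, all lower, with a median of -1.49. Of all genes 56.3% were called in each (25.1% higher and 31.2% lower in SN, 30.8% lower in NSN oocytes), and the medians of all genes were -0.08 and -0.12. The 6 genes called lower were Prdx2, Prdx3, Prdx5, Sod1, Gpx4 and Txn1 in both types.

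**Figure D3:**
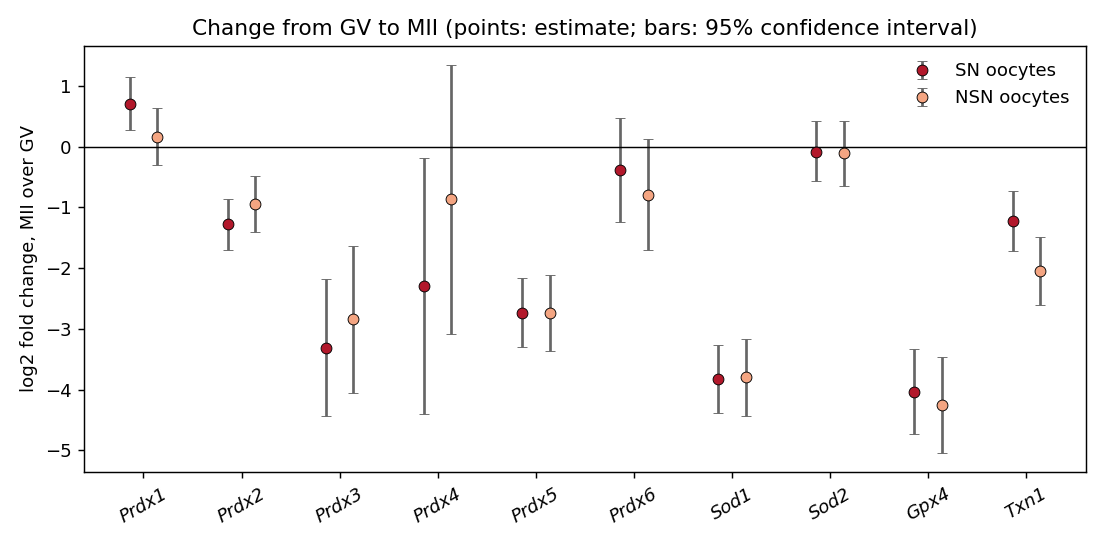
Log2 fold change of MII over GV for each gene, in SN oocytes (dark red) and NSN oocytes (light orange); points are edgeR estimates and bars their 95% confidence intervals. The intervals of 6 genes lie below 0 in both types, those of Sod2 and Prdx6 include 0 in both, and in SN oocytes alone that of Prdx1 lies above 0 and that of Prdx4 below 0.

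Sod1 and Prdx5 changed by nearly the same amount in both types. The log2 change of Sod1 was -3.83 in SN and -3.80 in NSN oocytes, and that of Prdx5 was -2.74 in each. The difference between the types was 0.03 for Sod1 (95% confidence interval -0.75 to 0.80) and 0.00 for Prdx5 (-0.87 to 0.86). These intervals are wide, and they do not show that the types act alike.

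Prdx4, Txn1 and Prdx1 had the largest estimated differences between types, and none passed the test. Prdx1 rose by 0.71 in SN oocytes (SE 0.21, edgeR adjusted p = 0.00831) with no overlap, as 28.9% of all genes did, while in NSN oocytes its log2 change was 0.16 (SE 0.22, adjusted p = 0.545). Txn1 fell in both, with log2 changes of -1.22 in SN and -2.04 in NSN oocytes. The log2 change of Prdx4 was -2.30 in SN oocytes (95% confidence interval -4.41 to -0.18, no overlap) and -0.87 in NSN oocytes (-3.09 to 1.34), neither of them called. The difference itself, tested as the interaction of type and stage, was 1.42 for Prdx4 (interval -1.62 to 4.46, edgeR adjusted p = 1), -0.54 for Prdx1 (unadjusted p = 0.0879, edgeR adjusted p = 1) and -0.82 for Txn1 (unadjusted p = 0.0331, edgeR adjusted p = 0.887). None of the 10 genes was called in the interaction, in which 0.0176% of all genes were. Of the 10 genes, Txn1 alone had an unadjusted p under 0.05 there. The call of Prdx1 in SN oocytes was lost with library totals alone (0.39, edgeR adjusted p = 0.0782) and with limma without a filter (0.51, adjusted p = 0.0569).

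At the GV stage, NSN and SN oocytes were compared within the 6 GV libraries. None of the 10 genes was called, nor was any of 10839 genes tested by edgeR (0%). An unadjusted p under 0.05 was held by 190, fewer than that threshold passes by chance where no gene differs. DESeq2 called 0 genes too, with 284 of 15276 at an unadjusted p under 0.05, again fewer than by chance. The median log2 difference of NSN minus SN over the 10 genes was 0.02, beside 0.01 for all genes. Prdx6 alone did not overlap in CPM: it was at 12.9, 11.8 and 10.6 CPM in SN and at 22.7, 17 and 13.1 CPM in NSN oocytes, a log2 difference of 0.62 (95% confidence interval -0.12 to 1.35, edgeR adjusted p = 1). Of all genes, 3.11% were higher in NSN oocytes without overlap, and in FPKM the groups overlapped for Prdx6. Sod1 was lower in NSN oocytes by a log2 difference of -0.28 (interval -0.66 to 0.11) and Prdx1 differed by 0.03 (interval -0.45 to 0.51).

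NSN replicate 2 had the highest level among the 6 GV oocytes for 8 of the 10 genes (all but Prdx6 and Sod1), where 27.1% of all genes were highest in it. Without it, the log2 difference between NSN and SN GV oocytes went from 0.03 to -0.21 for Prdx1 and from 0.18 to -0.15 for Gpx4, neither of them called.

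At MII, NSN-MII and SN-MII oocytes were compared within the 7 MII libraries. Of the 10 genes 9 were tested, Prdx4 having too few counts, and none was called. Of all 10028 genes, 26 were (0.259%). Prdx1 and Txn1 were lower in all 3 NSN-MII than in all 4 SN-MII oocytes, as 5.56% of all genes were. The log2 difference was -0.52 for Prdx1 (SE 0.16, 95% confidence interval -0.87 to -0.18, edgeR adjusted p = 0.249) and -0.67 for Txn1 (SE 0.27, interval -1.27 to -0.08, edgeR adjusted p = 0.443). Prdx2 differed the other way by 0.32 (interval -0.04 to 0.67), with overlap. The other 6 genes overlapped between the groups, with log2 differences from -0.26 for Sod1 to 0.44 for Prdx3.

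The ratio of Prdx1 to Prdx2 within an oocyte, which needs no scaling, was 5.92, 5.21, 5.19 and 8.86 in SN-MII and 3.43, 3.46 and 3.09 in NSN-MII oocytes. It was 1.69, 1.32 and 1.65 in SN GV and 1.63, 1.55 and 1.49 in NSN GV oocytes. The MII types did not overlap and the GV types did. This ratio was examined after its values were seen and is given with no test.

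Txnrd1, the cytosolic thioredoxin reductase that recharges Txn1, was the 1 gene of the wider pathway called between NSN-MII and SN-MII oocytes, where 0.249% of all genes were called lower. It was at 94, 104, 112 and 149 CPM in SN-MII and at 54.6, 52.5 and 52.5 CPM in NSN-MII oocytes, a log2 difference of -1.11 (SE 0.20, edgeR adjusted p = 0.0473). The groups did not overlap, and the GV oocytes lay between 71.4 and 125 CPM. The call was near its threshold: it was lost without any 1 of SN-MII replicates 2, 3 and 4 (adjusted p = 0.126, 0.151 and 0.119) or NSN-MII replicates 1 and 2 (0.145 and 0.172). It was also lost with DESeq2's size factors (0.0523), library totals alone (0.0672), the replicate number as a block (0.306) and limma (0.154), while DESeq2 kept it (adjusted p = 0.000103). Its interaction of type and stage was -0.95 (edgeR adjusted p = 0.733).

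Txnip, which binds and inhibits thioredoxin, is given as well, chosen after its values were seen. It was at 1742, 1814, 1653 and 2547 CPM in SN-MII and at 614, 587 and 1164 CPM in NSN-MII oocytes. The groups did not overlap, but the log2 difference of -1.31 (SE 0.25) did not pass the test (edgeR adjusted p = 0.0652). With library totals alone Txnip was called (-1.30, edgeR adjusted p = 0.0349) and Txnrd1 was not, so which of the pair was called depended on the scaling. DESeq2 called both (Txnip adjusted p = 0.00024), and edgeR called Txnip without NSN-MII replicate 3 (-1.68, adjusted p = 0.000949).

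The wider pathway gave the setting of these changes. Apart from the 10 genes, 84 genes of antioxidant lists drawn from general knowledge were in the count tables, and 66 were tested between stages: 16 were higher at MII, 28 lower and 22 not called, with a median log2 fold change of -0.35. The share called is near that of all genes, of which 68.6% were called, 31.7% higher and 36.9% lower, and the counts of single lists given next rest on few genes each. In each list up to 3 called genes are named, those with the largest changes and no overlap between stages; of all genes 20.9% were higher without overlap.

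**Figure D4:**
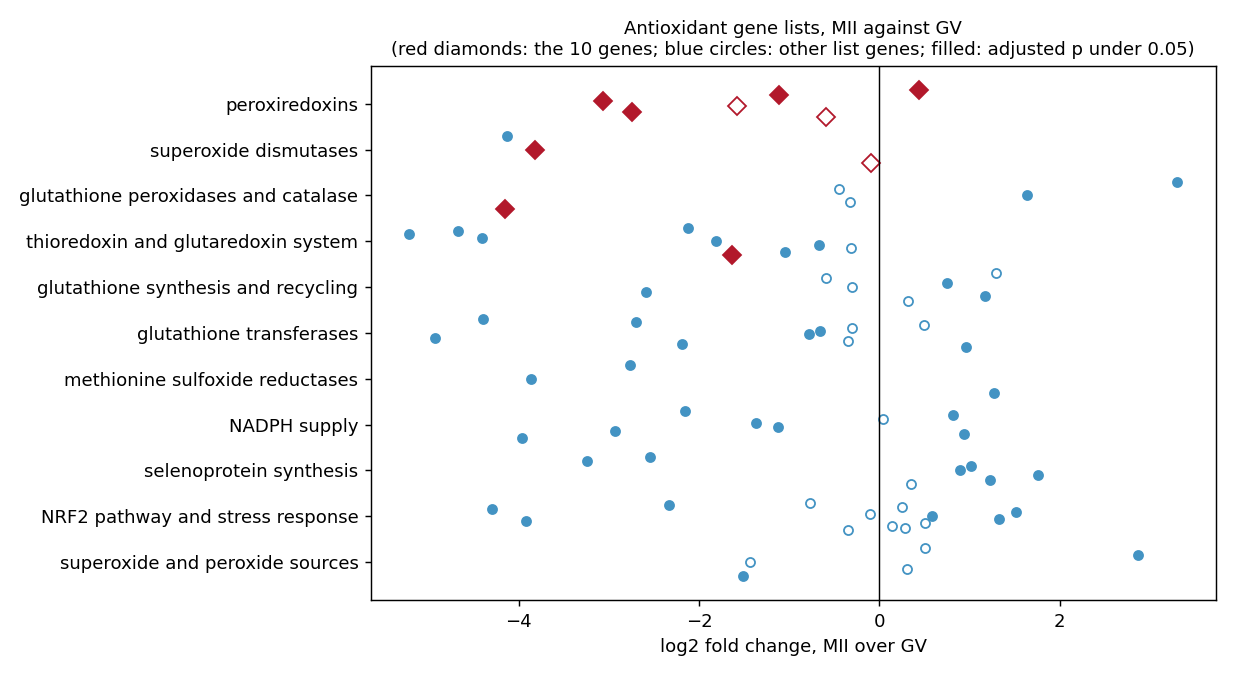
Log2 fold change of MII over GV for genes of 11 antioxidant lists; red diamonds are the 10 genes, blue circles the other list genes, and filled symbols passed an edgeR adjusted p under 0.05. The thioredoxin and glutaredoxin genes all lie below 0, while the selenoprotein synthesis, glutathione peroxidase and NRF2 lists hold genes on both sides.

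Genes that act with the superoxide dismutases and thioredoxin mostly fell. Ccs, the chaperone that loads copper into Sod1, was at 7.88 ± 1.47 CPM (SD, n = 6) at GV and 0.429 ± 0.593 CPM (n = 7) at MII, and fell by 4.13 on the log2 scale (edgeR adjusted p = 5.76e-05). In the thioredoxin and glutaredoxin system 7 of 8 genes tested were lower and none higher, with a median of -1.97. Glrx3 (log2 change -5.21) and Glrx5 (-4.41) led it, with Glrx2, which went from 1.06 to 3.89 CPM at GV to 0 to 0.263 CPM at MII. These glutaredoxins are known for iron-sulfur cluster handling and thiol reduction. Txnrd1 was the gene not called between stages (-0.32, edgeR adjusted p = 0.0964). By type it was -0.79 in NSN oocytes (edgeR adjusted p = 0.0107) and 0.16 in SN oocytes (0.571). Txnip, counted among the 7 lower genes, was -1.37 in NSN oocytes (edgeR adjusted p = 0.000654) and 0.04 in SN oocytes (0.917). Neither gene was called in the interaction of type and stage.

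NADPH supply and methionine repair also held large falls. Of 8 NADPH genes tested, 5 were lower and 2 higher (median -1.25): the log2 change was -3.96 for Tkt, -2.93 for Pgls and -2.16 for G6pdx, the entry enzyme of the pentose phosphate pathway. G6pdx was abundant, at 703 ± 105 CPM at GV and 159 ± 44.6 CPM at MII. Of 3 methionine sulfoxide reductases tested 2 were lower, Msrb1 (-3.86) and Msra (-2.77), and 1 was higher. Of 10 glutathione transferases tested 6 were lower and 1 higher (median -0.72), led by Gstt2 (-4.93), Gsta4 (-4.39) and Gstk1 (-2.70).

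Other lists were mixed or rose in part. Among 4 glutathione peroxidases and catalase genes tested, 2 were higher, and Gpx3, the secreted glutathione peroxidase, rose from 78.4 ± 10.8 to 242 ± 38.7 CPM, by 1.64 on the log2 scale (SE 0.14, edgeR adjusted p = 3.35e-08), the opposite of Gpx4. Of 7 selenoprotein synthesis genes, 4 were higher and 2 lower. Sephs2, which makes the selenium donor, rose by 1.76, while Pstk and Eefsec, which make and deliver selenocysteine tRNA, fell (-3.24 and -2.54). In glutathione synthesis and recycling 2 of 7 were higher, Slc3a2 (1.17) and Ggct (0.75), and Gss, glutathione synthetase, fell by 2.59. In the NRF2 list 3 of 13 were higher and 3 lower, the latter being Maff (-4.29), Park7 (-3.92) and Hmox2 (-2.33). In the list of superoxide and peroxide sources, 1 of 5 genes was higher and 1 lower, both with overlap between stages.

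The genes whose levels followed each member most closely over the 13 libraries were sought among 7279 genes, by Pearson's r of log2(CPM + 1). They were Emg1 for Sod1 (r = 0.997), Chchd2 for Gpx4 (0.996), Rps3 for Prdx5 (0.995), Rps10 for Prdx3 (0.989), Fth1 for Prdx2 (0.986) and Ccdc115 for Txn1 (0.986). For the other genes, the 3 not called between stages and Prdx1, r was lower: Gpn2 for Sod2 (0.927), Ythdc1 for Prdx1 (0.908), Bsg for Prdx4 (0.889) and Ints5 for Prdx6 (0.836). The GV and MII libraries form separate clusters and share their scaling, so these values describe the libraries and carry no test.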

How the data were processed

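RNA of single oocytes was amplified by SMART-seq2. The authors trimmed the reads with Trim Galore 0.4.4, mapped them to mm10 with Bowtie2 2.3.5 and quantified genes with RSEM 1.2.28, as given by the methods and the submitters' processing notes. The deposited expected count values, 1 table per stage, share out reads that map to several genes, and up to 16.6% of a library's values were not whole. The deposited FPKM values, 1 table for all 13 libraries, take gene length and sequencing depth into account. The methods name neither molecular identifiers nor strand. The upper limit given for Prdx4 covers counting error only, while the edgeR confidence intervals include the spread between oocytes.

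Expected counts were rounded to whole numbers, filtered with filterByExpr and given TMM factors by edgeR 4.0.16 under R 4.3.3. The quasi-likelihood test with Benjamini-Hochberg adjustment was run over all genes tested, and a call was an adjusted p under 0.05. The stages and the interaction were tested in 1 fit of 13 libraries, and NSN against SN oocytes within each stage. The SE is the log2 fold change over the square root of F. The common biological coefficient of variation was 0.352 at GV and 0.344 at MII, so with 3 or 4 oocytes per group, spread between oocytes and not depth limited most values. DESeq2 1.42.0, limma 3.58.1 on log2(FPKM + 1), other scalings and filters, thinned counts, a replicate block and leaving out each library were alternatives. The steps were tested on simulated data. Within each group no 2 libraries were copies, and pairs across groups were not compared. Reads that Prdx1, Prdx2, Prdx6, Gpx4 and Txn1 may share with their annotated pseudogenes were not analysed here, so these counts are uncertain to that extent.

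The 10 genes and the lists were chosen with earlier results of these data known, so they are described by counts beside all genes. Named list genes were the called genes with the largest changes and no overlap between stages, at most 3 per list, and list genes called between types. Genes most alike were sought at a mean of at least 10 CPM.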

Additional observations from a re-analysis of the deposited data

Results flagged for a closer look

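Prdx4 in SN-MII replicate 3 stood apart from the other SN-MII oocytes. It was at 3.02 CPM (23 counts), where the other three had at most 0.398 CPM, and its gap to the nearest was 0.868 of the whole range, above the critical value of Dixon's test for 4 samples. For normally distributed values chance flags about 1 in 20 groups, and 10 genes were examined in this group. The rate for counts as low as these was not measured. The same oocyte was highest for Prdx6 (14.2 CPM, gap 0.828 of the range, just under that value). Without it the log2 change of Prdx4 from SN GV to SN-MII oocytes went from -2.30 to -4.09 (edgeR adjusted p = 0.0607 and 0.00489). Leaving out the highest SN-MII value lowers the SN-MII mean, so a larger fall follows from the choice of oocyte.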

How the results depend on the processing

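The 6 falls between stages kept their call under every alternative run, and so did their direction. For Prdx1, the rise between stages was not called with library totals (0.13), limma (0.24), a replicate block (0.38, adjusted p = 0.0586) or a minimum of 1.5-fold. Labels give the groups the same replicate numbers. The deviations of same-numbered libraries from their group means had correlations of -0.419 to 0.206. With 3 or 4 oocytes per group, such values cannot decide whether the number pairs them. With the replicate block the MII types gave 2 genes called and 0 other list genes, and Prdx3 there was -0.01. Genes called between MII types (26) became 221 with DESeq2, 16 with library totals, 89 with no filter, 69 with all 13 libraries in 1 fit, and 4, 4 and 2 with limma on log2(FPKM + 1), log2(FPKM + 0.1) and with no filter. Other list genes called there (1) became 3 with DESeq2, no filter or all libraries in 1 fit (Txnrd1, Txnip and Me1), and 0 with DESeq2's size factors and limma. In the interaction 2 genes called became 43 with DESeq2, 6 with no filter and 1, 1 and 4 with limma. Between GV types limma called 1 gene with either pseudocount. The cause of these shifts was not tested. None of the 10 genes was called between types at either stage or in the interaction under any alternative run.

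Directions turned only for genes not called. From NSN GV to NSN-MII, Prdx1 was -0.13 with library totals and -0.04 with limma. Between MII types, Gpx4 was 0.03 with library totals, Prdx3 -0.21 with limma on log2(FPKM + 0.1), and Prdx6 -0.24 and -0.31 with limma at the 2 pseudocounts. Leaving out each library gave 2 to 233 genes called between MII types (233 without NSN-MII replicate 3, the library with the lowest TMM factor), with 0 to 4 other list genes, and 0 to 12 in the interaction, with 0 to 1. It gave -0.33 to 0.26 for Gpx4, -0.37 to 0.97 for Prdx3, -0.01 to 0.27 for Prdx5, -0.46 to 0.50 for Prdx6 and -0.54 to 0.03 for Sod1 between MII types. Between GV types it gave -0.21 to 0.15 for Prdx1 and -0.15 to 0.37 for Gpx4, and from NSN GV to NSN-MII, -2.24 to 0.29 for Prdx4 and -0.42 to 0.03 for Sod2. Depth limits Prdx4 and the MII levels of Prdx3, which rest on few counts.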
